A study of Mus musculus with 6 samples.

Results

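The 29 genes described here encode the enzymes, regulators and carrier that break down branched-chain amino acids and ketone bodies, chosen by gene symbol from a table of 45777 genes. They were measured by RNA sequencing in brown adipose tissue, a fat depot whose mitochondria make heat. The tissue came from male wild type C57Bl6/J mice that had received intraperitoneal injections of PBS (phosphate-buffered saline, the control) or of ginsenoside Rb2, a steroid-like saponin of ginseng, over 2 weeks. Each group held 3 mice, and the sources used here state neither the age of the mice nor the dose. Levels are given as CPM, TMM-normalised counts per 1000000. Libraries carry the numbers of the count table (PBS 1, 2 and 4, and Rb2 1, 3 and 4).

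Leucine, isoleucine and valine are broken down in mitochondria. A carrier brings them in, a transaminase turns them into ketoacids, and the branched-chain ketoacid dehydrogenase commits those ketoacids to oxidation. This dehydrogenase is switched off when the kinase BCKDK phosphorylates it and switched on when the phosphatase PPM1K removes the phosphate. Separate arms then lead leucine to acetyl-CoA and acetoacetate, and valine and isoleucine through propionyl-CoA to succinyl-CoA. Ketone bodies enter the same mitochondrial acetyl-CoA pool. Brown fat is known to take up and burn branched-chain amino acids when it makes heat.

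Of the 29 members, 11 rose after Rb2 and none fell (edgeR's quasi-likelihood test, p-values adjusted after Benjamini and Hochberg over all 16707 genes tested, threshold 0.05). The members that rose make up 37.9% of the list, beside 5.33% of all genes tested that rose, 5.11% that fell and 10.4% called in either direction. The median log2 fold change of all 29 members was 0.44, against -0.01 for all genes tested. All 29 passed the filter on low counts. The log2 fold change was above 0 for 25 members, and 18 had every Rb2 library above every PBS library. That is 62.1% of the members, beside 18.2% of all genes tested. The rises were spread over every step but the first: 2 of 5 members of the ketoacid dehydrogenase step, 2 of 4 of the leucine arm, 3 of 5 of the valine arm, 2 of 3 of the isoleucine arm, 1 of 7 of the propionate arm and 1 of 2 of the ketone arm. Leaving out PBS 1 left 3 of these calls and leaving out PBS 2 left 1. There were 5 calls when Rb2 1 or Rb2 3 was omitted, and 12 when PBS 4 or Rb2 4 was. With library size alone as scaling 5 members rose: Dbt, Ppm1k, Hibch, Aldh6a1 and Mmut.

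**Figure D1:**
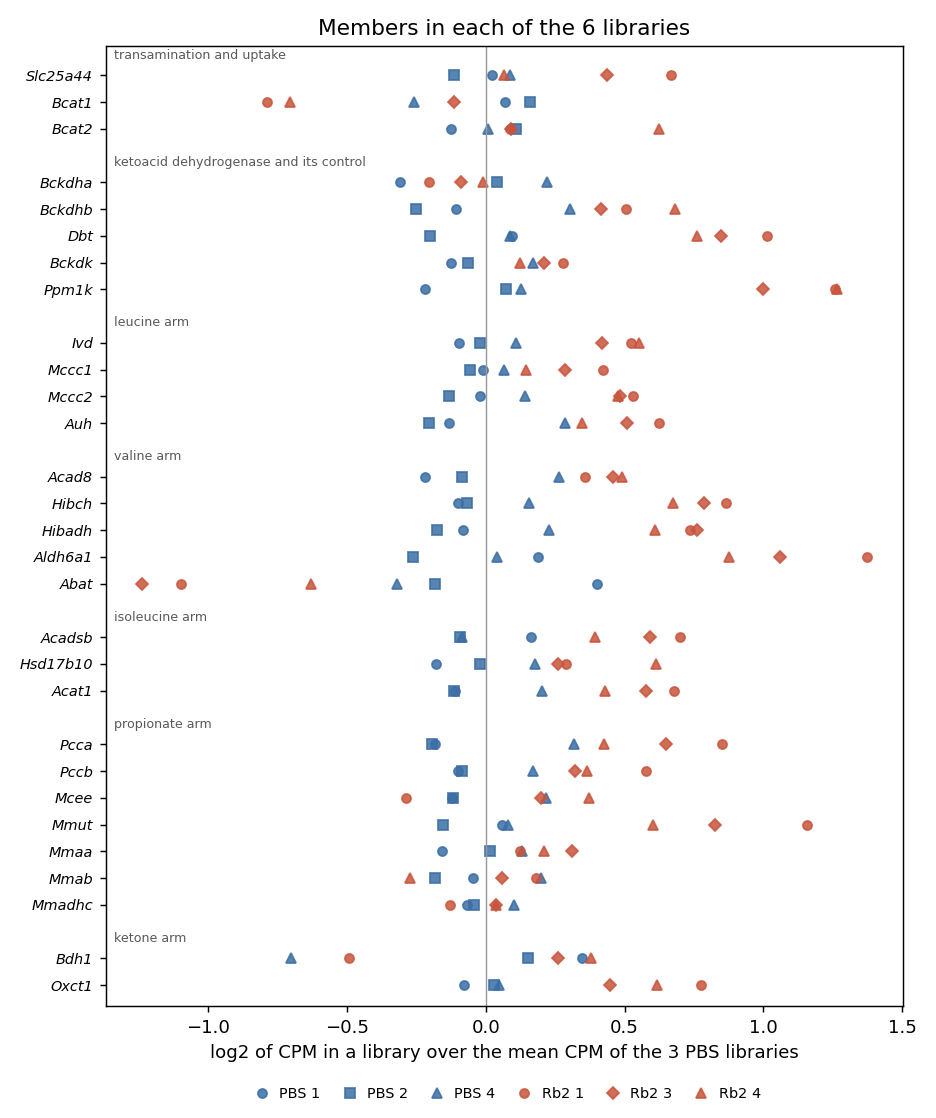
Expression of the 29 members in each library, as the log2 of its CPM (counts per 1000000, TMM-normalised) over the mean CPM of the PBS libraries, grouped by step; blue symbols are the PBS libraries and red symbols the Rb2 libraries. In 18 members all red symbols lie to the right of all blue ones, in Abat (valine arm) all lie to the left, and PBS 4 is the highest PBS library in 22 members.

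Total counts ran from 83642183 to 92666780 per library. The tissue label was checked with 12 brown adipocyte markers, all of which were detected. Ucp1, the uncoupling protein of brown fat, was at 3388 to 4770 CPM in the PBS libraries and 2928 to 4687 CPM in the Rb2 libraries. Of the 12 markers 2 fell, Prdm16, a regulator of brown fat identity (log2 fold change -1.13, edgeR adjusted p = 0.00584), and Elovl3, a fatty acid elongase (-1.74, adjusted p = 0.0214). Dio2 (-1.38, adjusted p = 0.133) and Cox8b (-0.65, adjusted p = 0.0751) were also lower in every Rb2 library and did not pass. Pparg was higher in every Rb2 library and did not pass either (0.37, edgeR adjusted p = 0.150). The log2 fold change was above 0 for 5 of the 12 markers. The summed share of the 12 markers overlapped between the groups (1.58% to 1.78% of counts with PBS, 1.18% to 1.67% with Rb2). Skeletal muscle markers (16 of 16 detected) made up 0.251% of all counts in PBS 1 and 0.834% in PBS 2, and 0.00492% to 0.0498% in the other libraries. The summed shares of 8 endothelial (0.140% to 0.175% with PBS, 0.0763% to 0.123% with Rb2), 7 fibroblast (0.0768% to 0.102% and 0.0483% to 0.0747%) and 7 macrophage markers (0.0105% to 0.0126% and 0.00621% to 0.00988%) were lower in every Rb2 library than in any PBS library. Taken singly, 5 of the 8 endothelial, 3 of the 7 fibroblast and 3 of the 7 macrophage markers were lower in every Rb2 library. The same held for 17.6% of all genes tested. At edgeR's adjusted threshold 4 of the 8 endothelial, 3 of the 7 macrophage and 0 of the 7 fibroblast markers fell. Of all genes tested, 5.11% did. Pdgfra, of the fibroblast list, was higher in every Rb2 library and did not pass (log2 fold change 0.27, edgeR adjusted p = 0.207). In such bulk samples fewer cells of a type and less RNA per cell cannot be told apart. Hepatocyte markers took at most 0.00351% of the counts, with the highest shares in Rb2 1 and 4. The 29 members together made up 0.341%, 0.376% and 0.441% of all counts in the PBS libraries (1, 2 and 4), against 0.532%, 0.492% and 0.524% in those of Rb2 (1, 3 and 4). Fits with the muscle markers as a covariate and without PBS 1 and 2 are given below. The part of the other marker shares in the rise of the members was not tested.

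The largest rise was that of Ppm1k, the phosphatase that activates the ketoacid dehydrogenase (gene 243382; chromosome 6, 57506502 to 57535552, minus strand, in GRCm38.p6). Its level was 10.3, 12.7 and 13.1 CPM in the PBS mice (1, 2 and 4), and 28.8, 24.1 and 29.0 CPM in the Rb2 mice (1, 3 and 4). The lowest Rb2 library was thus 1.83 times the highest PBS library. The means were 12.1 ± 1.50 and 27.3 ± 2.78 CPM (SD, n = 3 mice each), a log2 fold change of 1.18 ± 0.14 SE (edgeR adjusted p = 0.00406). It was the 1 member called whichever library was left out, with a largest adjusted p of 0.0315 (edgeR, without PBS 1).

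Bckdk, the kinase that opposes it (gene 12041; chromosome 7, 127904073 to 127909664), was at 83.8, 87.5 and 103 CPM with PBS and 111, 106 and 99.4 CPM with Rb2. The groups overlapped, and its log2 fold change of 0.20 (95% interval -0.09 to 0.50) did not pass the threshold (edgeR adjusted p = 0.324). The count of Ppm1k per base of transcript was 0.0756, 0.0887 and 0.0784 of that of Bckdk in the PBS libraries and 0.160, 0.140 and 0.179 of it in the Rb2 libraries. This phosphatase to kinase ratio, which no library scaling can move, was higher in all Rb2 libraries (difference 0.97 ± 0.12 SE on the log2 scale). An exact two-sided permutation test gave p = 0.1, the smallest that 3 against 3 libraries allow (adjusted p = 0.233 over the 7 ratios computed). The transcript of Ppm1k holds 39.9% G and C and that of Bckdk 52.7%. Once GC content and transcript length entered the fit as an offset, their log2 fold changes were 0.94 (edgeR adjusted p = 0.0153) and 0.29 (adjusted p = 0.197).

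The RefSeq sequences just upstream of the annotated starts are shown for these opposed regulators and for 3 members of the arms that rose (Aldh6a1, Mccc2 and Hibch), to show the regulatory DNA beside the transcripts compared. Bases run 5′ to 3′ on the gene's strand in GRCm38.p6 and stop just before the gene's annotated span. Capitals mark exact matches on either strand to a motif that was searched for. Among these were the CCAAT box, bound by the factor NF-Y, and the box of Kruppel-like factors, searched as CCACCC. The E-box was searched as CACGTG and the ERR element as TCAAGGTCA. The D-box was searched in a first form, TTATGTAA, and in a palindromic form, TTACGTAA, and the PPAR direct repeat was searched as well.
Ppm1k, chr6:57535553-57535737, minus strand: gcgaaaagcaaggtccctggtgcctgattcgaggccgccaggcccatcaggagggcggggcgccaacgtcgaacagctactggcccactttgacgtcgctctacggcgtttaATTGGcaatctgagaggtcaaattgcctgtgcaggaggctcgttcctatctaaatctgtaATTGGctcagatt
Bckdk, chr7:127903823-127904072, plus strand: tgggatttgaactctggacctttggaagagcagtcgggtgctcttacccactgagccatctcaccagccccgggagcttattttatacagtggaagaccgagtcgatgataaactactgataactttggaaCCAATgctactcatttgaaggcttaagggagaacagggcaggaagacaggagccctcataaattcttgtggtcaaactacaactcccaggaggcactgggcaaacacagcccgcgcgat
Aldh6a1, chr12:84451025-84451274, minus strand: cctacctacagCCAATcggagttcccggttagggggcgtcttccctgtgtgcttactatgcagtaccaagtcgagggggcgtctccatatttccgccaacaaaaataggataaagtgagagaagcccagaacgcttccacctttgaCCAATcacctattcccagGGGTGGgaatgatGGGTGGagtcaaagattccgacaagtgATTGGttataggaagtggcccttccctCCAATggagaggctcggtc
Mccc2, chr13:100015640-100015889, minus strand: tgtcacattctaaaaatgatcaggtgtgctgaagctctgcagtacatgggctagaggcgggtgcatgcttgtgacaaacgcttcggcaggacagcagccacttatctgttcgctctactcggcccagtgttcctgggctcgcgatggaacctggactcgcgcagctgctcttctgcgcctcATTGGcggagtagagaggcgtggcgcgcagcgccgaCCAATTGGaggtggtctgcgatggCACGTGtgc
Hibch, chr1:52844788-52845037, plus strand: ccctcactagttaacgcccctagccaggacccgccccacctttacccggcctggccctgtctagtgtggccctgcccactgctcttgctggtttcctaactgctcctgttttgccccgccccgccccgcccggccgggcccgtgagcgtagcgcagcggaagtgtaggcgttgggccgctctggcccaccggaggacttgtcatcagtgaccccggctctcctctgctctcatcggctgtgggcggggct

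The Ppm1k window holds 2 CCAAT boxes, that of Bckdk 1 and that of Aldh6a1 4, together with 2 Kruppel-like boxes. Mccc2 has 3 CCAAT matches, of which 2 overlap on opposite strands, and an E-box 9 bases before the start. The Hibch window holds none of the motifs searched. Promoter windows were found for 23 of the 29 members. A CCAAT box stood in the 250 bases before a start of 14 of these 23 (60.9%), beside 39.5% of 17519 protein-coding genes. A Kruppel-like box stood in 8 (34.8%, beside 32.8%) and an E-box in 1, Mccc2 (4.35%, beside 7.61%). Neither D-box, the ERR element nor the PPAR repeat had an exact match in a member's window, and each occurs in under 1% of all genes (0.948% for the more frequent D-box). Of the members that rose, Ivd, Mccc2, Hibadh, Aldh6a1 and Ppm1k had a CCAAT box. Hibch, Acadsb and Oxct1 rose with no such box in their windows. The other members with a CCAAT box did not pass the threshold. All motif matches describe the sequence and were not tested.

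The core of the ketoacid dehydrogenase changed unevenly. Dbt, the lipoyl-carrying E2 transacylase (gene 13171; chromosome 3, 116513070 to 116549981), was at 75.1, 61.2 and 74.6 CPM with PBS and at 142, 127 and 119 CPM with Rb2. All Rb2 libraries stood at least 1.59 times above the highest PBS library. It rose by a log2 fold change of 0.88 ± 0.14 SE (edgeR adjusted p = 0.00983), and the adjusted p was 0.0527 without PBS 2.

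Bckdhb, the beta subunit of the E1 decarboxylase, was at 67.0, 60.6 and 89.0 CPM with PBS and 102, 96.3 and 116 CPM with Rb2. The groups did not overlap, yet the change did not pass the threshold (log2 fold change 0.54, edgeR adjusted p = 0.0659). With 1 library left out Bckdhb passed only without PBS 4, its highest PBS library (edgeR adjusted p = 0.0325). The largest adjusted p of these fits was 0.232. Bckdha, the E1 alpha subunit that BCKDK and PPM1K act on, was at 433, 551 and 624 CPM with PBS and 465, 503 and 532 CPM with Rb2. All Rb2 values lay within the PBS range, with a log2 fold change of -0.10 (95% interval -0.47 to 0.27, edgeR adjusted p = 0.720), and of 0.21 (adjusted p = 0.373) under the GC and length offset. At 57.9% it has the highest GC content of the members.

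Per kilobase of the longest transcript, Bckdha was the most abundant member in the PBS group (282 CPM per kb), above Bckdhb (48.9) and Dbt (21.3). Bckdhb stood at 0.199, 0.141 and 0.183 of the length-scaled count of Bckdha in the PBS libraries, against 0.283, 0.246 and 0.280 in the Rb2 libraries. All Rb2 libraries had the higher ratio (log2 difference 0.64 ± 0.16 SE, exact permutation p = 0.1, adjusted p = 0.233). The ratio of Dbt to Bckdhb overlapped between the groups (0.33 ± 0.18 SE, exact permutation p = 0.2, adjusted p = 0.233).

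**Figure D2:**
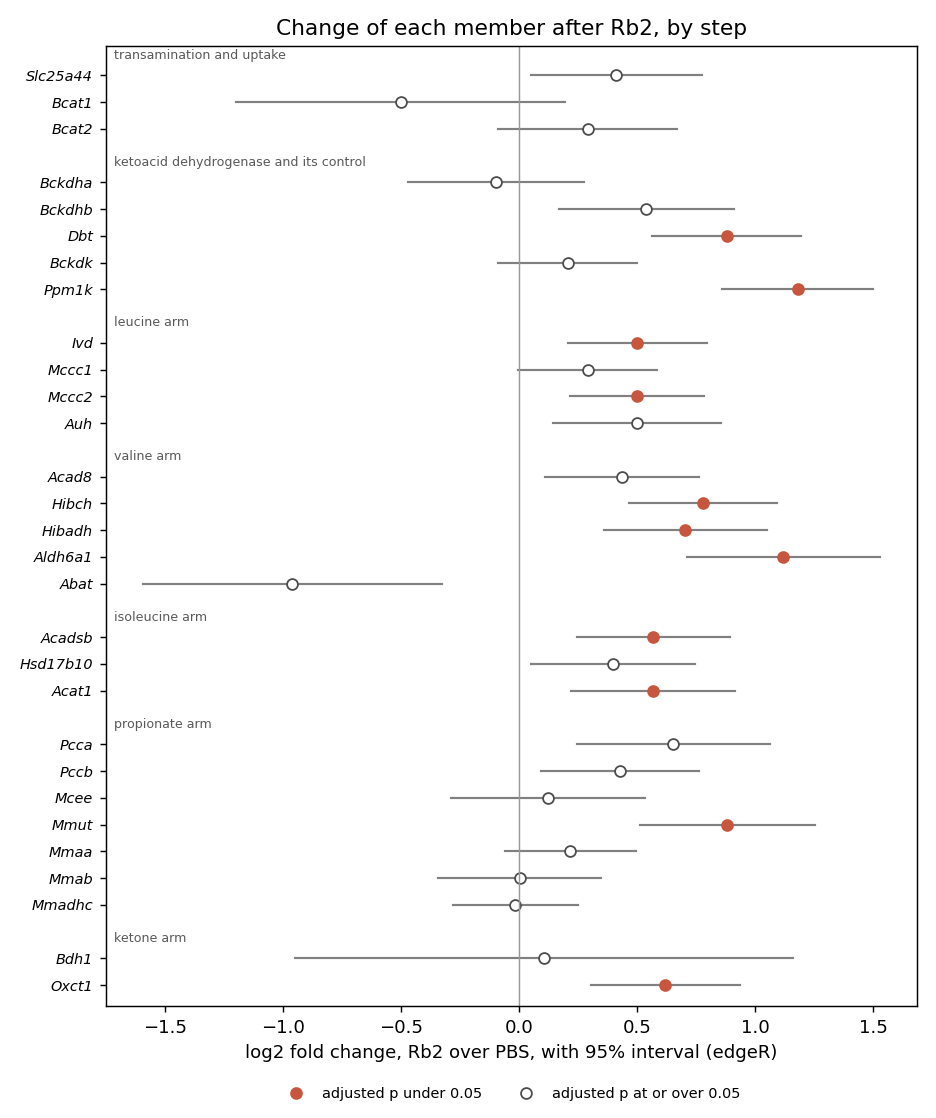
Log2 fold change of each member (Rb2 over PBS, edgeR) with its 95% interval, grouped by step; filled symbols passed the adjusted threshold of 0.05. The largest values are those of Ppm1k (1.18) and Aldh6a1 (1.12), and Bckdha (-0.10), Mmadhc (-0.02), Bcat1 (-0.50) and Abat (-0.96) are the members below 0.

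At the entry to the pathway no member passed the threshold. Slc25a44, the mitochondrial carrier for branched-chain amino acids, was at 63.6, 57.9 and 66.7 CPM with PBS and 99.6, 84.9 and 65.7 CPM with Rb2. Its log2 fold change was 0.41 (edgeR adjusted p = 0.126). With 1 library left out it passed only without Rb2 4 (adjusted p = 0.0311), and the largest adjusted p was 0.343. Rb2 4 lay within the PBS range, while Rb2 1 and 3 were above it. Bcat2, the mitochondrial transaminase, showed the reverse order, with 91.7 and 91.8 CPM in Rb2 1 and 3 and 133 CPM in Rb2 4, against 79.1 to 93.1 CPM with PBS (0.29, adjusted p = 0.279). Bcat1, the cytosolic transaminase, was low, with 75 to 99 counts per library with PBS and 45 to 70 with Rb2 (log2 fold change -0.50, adjusted p = 0.304). The length-scaled count of Bcat2 was 310 to 426 times that of Bcat1 with PBS and 407 to 890 times with Rb2, with overlap.

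In the leucine arm Ivd and Mccc2 rose. Ivd, isovaleryl-CoA dehydrogenase, was at 154, 163 and 178 CPM with PBS against 237, 220 and 242 CPM with Rb2 (0.50 ± 0.13 SE on the log2 scale, edgeR adjusted p = 0.0426). Mccc2, the non-biotinylated subunit of methylcrotonyl-CoA carboxylase, went from 77.1, 71.2 and 86.3 to 113, 109 and 109 CPM (0.50 ± 0.13 SE, adjusted p = 0.0383). Both groups were tight and separate in these genes. The call of Ivd was lost whichever library was left out (edgeR adjusted p 0.0570 to 0.158). That of Mccc2 was lost without PBS 1, PBS 2, Rb2 1 or Rb2 3 (largest adjusted p = 0.172).

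Mccc1, the biotin-carrying partner of Mccc2, was at 121, 117 and 128 CPM with PBS and 164, 149 and 135 CPM with Rb2. Its groups were separate by a narrow margin and it did not pass (log2 fold change 0.29, edgeR adjusted p = 0.171). The ratio of Mccc1 to Mccc2 was 1.36, 1.42 and 1.28 with PBS and 1.25, 1.18 and 1.07 with Rb2. It was lower in every Rb2 library (log2 difference -0.22 ± 0.08 SE, exact permutation p = 0.1, adjusted p = 0.233). Auh, methylglutaconyl-CoA hydratase, ran from 57.7 to 81.1 CPM with PBS and from 84.6 to 103 CPM with Rb2. PBS 4 was close to the Rb2 libraries, and the change did not pass (log2 fold change 0.50, edgeR adjusted p = 0.0738). With 1 library left out Auh passed only without PBS 4 (edgeR adjusted p = 0.0374), and the largest adjusted p was 0.251.

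The valine arm held the second largest rise and the largest negative value. Aldh6a1, methylmalonate semialdehyde dehydrogenase (gene 104776; chromosome 12, 84430717 to 84451024), was at 307, 225 and 278 CPM in PBS 1, 2 and 4. In Rb2 1, 3 and 4 it was at 699, 563 and 495 CPM. The lowest Rb2 value was 1.61 times the highest PBS value. It rose from a mean of 269.9 ± 41.8 to 586 ± 104 CPM (log2 fold change 1.12 ± 0.18 SE, edgeR adjusted p = 0.0101), with an adjusted p of 0.0521 without PBS 2. Its span overlaps that of Bbof1 on the other strand by 10712 bases. Bbof1 had 1.38% of the counts of Aldh6a1.

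Hibch, hydroxyisobutyryl-CoA hydrolase (gene 227095; chromosome 1, 52845038 to 52920986), went from 145, 148 and 173 to 283, 268 and 248 CPM (log2 fold change 0.78 ± 0.14 SE, edgeR adjusted p = 0.0129). Hibadh, the dehydrogenase that acts next, went from 267, 250 and 330 to 470, 478 and 431 CPM (0.70 ± 0.15 SE, adjusted p = 0.0242). These consecutive enzymes had no overlap between groups. Without PBS 1 or PBS 2 neither passed (largest edgeR adjusted p 0.0668 for Hibch and 0.114 for Hibadh), and Hibadh also failed without Rb2 1 or Rb2 3. Acad8, isobutyryl-CoA dehydrogenase, which starts this arm, had separate groups (42.2 to 59.0 CPM and 63.0 to 69.0 CPM). It did not pass (log2 fold change 0.44, edgeR adjusted p = 0.0815). With 1 library left out Acad8 passed only without PBS 4 (edgeR adjusted p = 0.0438), and the largest adjusted p was 0.251.

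Abat is best known as the GABA transaminase and also acts on the aminoisobutyrate that branches off valine breakdown. It was at 3.13, 2.09 and 1.90 CPM with PBS and 1.11, 1.01 and 1.53 CPM with Rb2. Every Rb2 library was below every PBS library, as in 17.6% of all genes tested, and the change did not pass the threshold (log2 fold change -0.96 ± 0.28 SE, edgeR adjusted p = 0.0585). Leaving out Rb2 4 brought it past the threshold (edgeR adjusted p = 0.0439), as did a count minimum of 50 (0.0433) and the Wald test of DESeq2 (0.0158). In all, Abat was called in 1 of 6 fits with a library left out and in 3 of 13 other settings. Without PBS 1 its log2 fold change was -0.71 (edgeR adjusted p = 0.176). These values rest on 254, 202 and 186 counts with PBS and 94, 83 and 142 with Rb2.

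In the isoleucine arm Acadsb and Acat1 rose. Acadsb, short/branched-chain acyl-CoA dehydrogenase, went from 141, 118 and 119 to 205, 190 and 166 CPM (log2 fold change 0.57 ± 0.14 SE, edgeR adjusted p = 0.0381). Acat1, the mitochondrial thiolase that splits methylacetoacetyl-CoA and also serves ketone use, went from 410, 409 and 510 to 708, 660 and 597 CPM (0.57 ± 0.15 SE, adjusted p = 0.0478). In both genes Rb2 1 was the highest library and Rb2 4 the lowest of the Rb2 group. Both calls were lost without PBS 1, PBS 2, Rb2 1 or Rb2 3 (largest edgeR adjusted p 0.163 and 0.190), and that of Acadsb also without PBS 4. Neither passed under the offset for GC content (adjusted p = 0.0613 and 0.0981). Hsd17b10, the dehydrogenase between them, was at 103 to 132 CPM with PBS and 140 to 179 CPM with Rb2, and did not pass (0.40, adjusted p = 0.123).

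In the propionate arm Mmut alone passed the threshold. Methylmalonyl-CoA mutase, its product, is the cobalamin-dependent enzyme that makes succinyl-CoA (gene 17850; chromosome 17, 40934685 to 40961990). Its transcript was at 88.3, 76.2 and 89.6 CPM in the PBS mice, against 189, 150 and 129 CPM in the Rb2 mice. Every Rb2 library lay above the PBS range, and Rb2 1 was the highest (log2 fold change 0.88 ± 0.17 SE, edgeR adjusted p = 0.0149). The adjusted p was over the threshold without PBS 1 or PBS 2 (at most 0.0741).

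Pcca and Pccb encode the subunits of propionyl-CoA carboxylase. Pcca, which carries biotin, was at 113, 112 and 160 CPM with PBS against 231, 201 and 172 CPM with Rb2 (0.65 ± 0.18 SE on the log2 scale, edgeR adjusted p = 0.0508). It lay just over the threshold, which it passed without PBS 4 (the smallest adjusted p with a library left out, 0.0304) and without Rb2 4. Pcca failed with any other library left out (largest edgeR adjusted p = 0.183). Pccb ran from 316 to 381 CPM and from 423 to 504 CPM (0.42, adjusted p = 0.0939). Their ratio overlapped between the groups (log2 difference 0.24 ± 0.12 SE, exact permutation p = 0.2).

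The helpers of the mutase stood lower in the order. Mcee, the epimerase before it, had a log2 fold change of 0.12 (95% interval -0.29 to 0.53), with 61.3 CPM in Rb2 1 and 96.9 CPM in Rb2 4 and 68.7 to 86.9 CPM with PBS. Mmaa, a GTPase that guards the cofactor on the mutase, was at 40.4 to 49.4 and 49.1 to 55.9 CPM (0.22, interval -0.06 to 0.49). Mmab, which makes adenosylcobalamin, was at 0.00 (-0.35 to 0.35), and Mmadhc, which routes cobalamin, at -0.02 (-0.28 to 0.25). In these 4 genes the groups overlapped, and the edgeR adjusted p ran from 0.271 (Mmaa) to 0.998 (Mmab).

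Of the ketone members, Oxct1 rose. It encodes the CoA transferase that activates acetoacetate for oxidation (gene 67041; chromosome 15, 4026428 to 4155344). Its values were 157, 169 and 171 CPM with PBS and 283, 225 and 254 CPM with Rb2, with the lowest Rb2 library 1.32 times the highest PBS library. The log2 fold change was 0.62 ± 0.14 SE (edgeR adjusted p = 0.0271). The call was lost when any library but Rb2 4 was left out (largest adjusted p = 0.102), although the direction was kept in each fit. Bdh1, which turns hydroxybutyrate into acetoacetate, had 14 to 25 counts per library with PBS and 14 to 28 with Rb2. It was thus nearly undetected in a tissue where Oxct1 had at least 12695 counts in every library, and its log2 fold change of 0.10 (95% interval -0.95 to 1.16) allows changes in either direction.

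**Figure D3:**
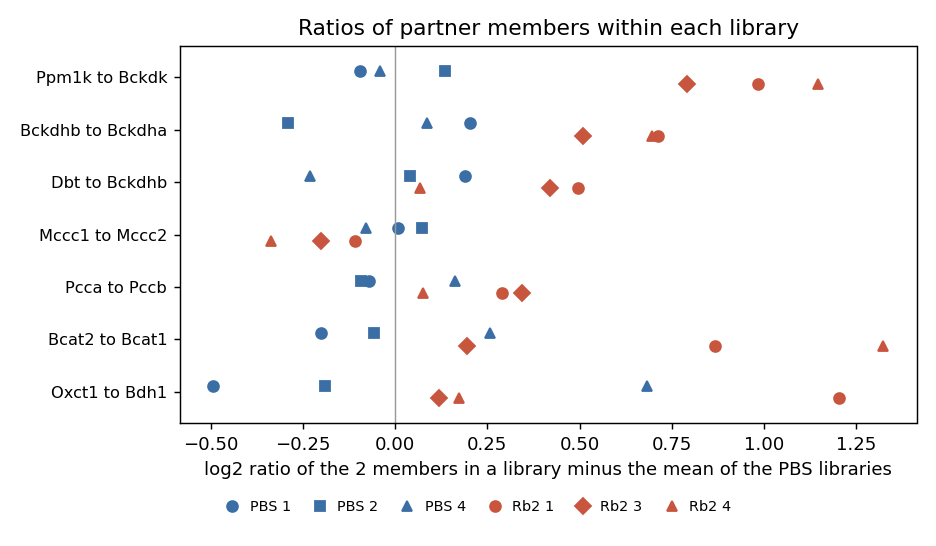
Log2 ratio of length-scaled counts of partner members within each library, minus the mean of the 3 PBS libraries; blue symbols are PBS libraries and red symbols Rb2 libraries. Ppm1k to Bckdk and Bckdhb to Bckdha are higher, and Mccc1 to Mccc2 lower, in all Rb2 libraries, and the other 4 ratios overlap.

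The order of the libraries within a group recurred across members. PBS 4 was the highest PBS library in 22 of 29 members. The median over members of the log2 CPM minus the gene's mean was -0.31, -0.29 and -0.07 for PBS (1, 2 and 4), against 0.28, 0.20 and 0.17 for Rb2 (1, 3 and 4). All PBS libraries were below all Rb2 libraries on this median, with PBS 4 the nearest. The libraries with the lowest medians, PBS 1 and 2, are also those with the most muscle transcripts. Without both, the median log2 fold change of the members was 0.28 and 23 members were above 0. No gene passed edgeR's threshold in that comparison of 1 PBS with 3 Rb2 libraries, in which the lone library is assumed to vary like the others (6 members and 2063 genes had an unadjusted p under 0.05). There the log2 fold change was 1.08 for Aldh6a1, 1.06 for Ppm1k, 0.80 for Mmut, 0.79 for Dbt, 0.66 for Acadsb, 0.62 for Hibch and 0.57 for Oxct1. It was 0.48 for Hibadh (0.70 with all libraries), 0.39 for Ivd (0.50), 0.36 for Acat1 (0.57) and 0.36 for Mccc2 (0.50). Among members that had not passed, it was 0.34 for Pcca (0.65), 0.24 for Bckdhb (0.54), 0.21 for Auh (0.50) and 0.17 for Acad8 (0.44). With the mean of the muscle markers as a covariate 6 members passed: Dbt, Ppm1k, Hibch, Hibadh, Aldh6a1 and Mmut.

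The members that rose most were poor in G and C. Across all genes tested the log2 fold change fell with the GC content of the transcript (Spearman rho -0.334 over 15863 genes), and across the 29 members rho was -0.60. Genes of the same libraries are not independent, so these are descriptions. Of 4 equal bins of genes by GC content, the lowest (up to 45.5%) had 10.2% of its genes rising, and 6 of the 8 members there did (Ppm1k, Dbt, Hibch, Aldh6a1, Acadsb and Mmut). In the highest bin 1.82% of all genes rose, and its 1 member, Bckdha, did not. Under the same offset the members' rho was -0.333 and their median log2 fold change 0.49. There 9 members rose: all of the 11 but Acadsb and Acat1.

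**Figure D4:**
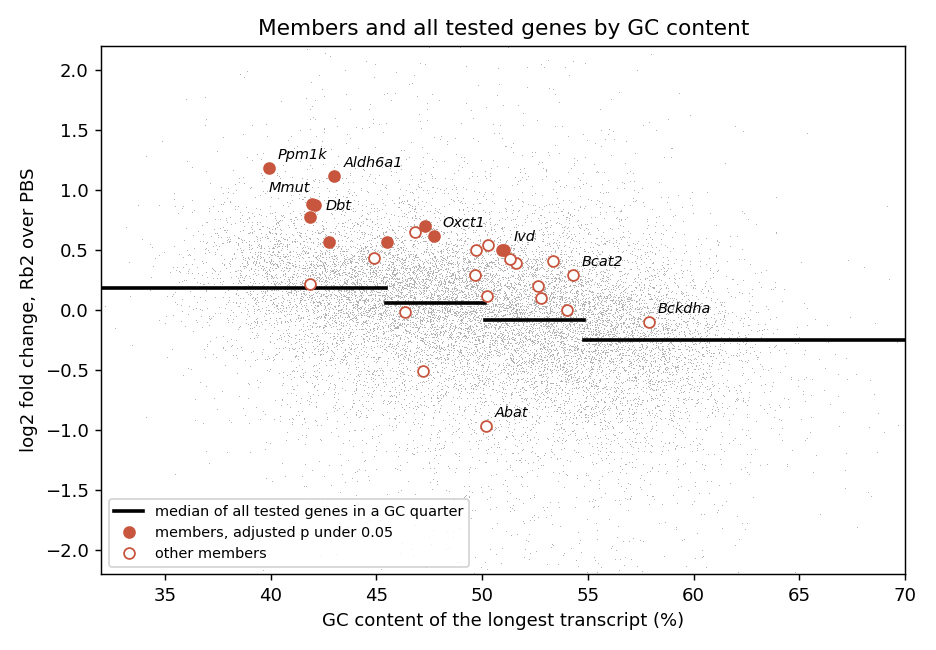
Log2 fold change (Rb2 over PBS) against the GC content of a gene's longest transcript for all tested genes (grey points, those beyond 2.2 in either direction not drawn) and the members (red circles, filled where the adjusted p was under 0.05); black lines give the median of all tested genes in each of 4 equal bins of GC content. The lines step down from 0.18 in the lowest bin to -0.25 in the highest, and 6 of the 8 members in the lowest bin are filled.

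Further genes that serve the pathway were taken from a list of 68, of which 63 were tested. In this list 11 rose and 1 fell, and the median log2 fold change was 0.23. Of all genes tested, 5.33% rose and 5.11% fell. Of the 6 genes that take on the electrons or the succinyl-CoA of the arms, 4 rose. Etfa, a subunit of the flavoprotein that accepts electrons from Ivd, Acad8 and Acadsb, went from 457, 483 and 700 to 996, 943 and 941 CPM (log2 fold change 0.81, edgeR adjusted p = 0.0276). Its partner Etfb overlapped between groups (0.02). Etfdh, which passes the electrons on (0.83, adjusted p = 0.0211), Sucla2 (0.65, adjusted p = 0.0315) and Suclg2 (0.61, adjusted p = 0.0330), subunits of the succinyl-CoA ligases, rose as well. Dld, the E3 subunit that the ketoacid dehydrogenase shares with other complexes (0.77, adjusted p = 0.0202), and Acadm, medium-chain acyl-CoA dehydrogenase (0.74, adjusted p = 0.0294), rose among 14 shared acyl-CoA enzymes.

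Of 8 genes of biotin, lipoyl and thiamine supply 2 rose and none fell. Slc5a6, a carrier of biotin and pantothenate (log2 fold change 0.71, edgeR adjusted p = 0.0131), and Slc19a2, a thiamine carrier that went from 3.84, 3.41 and 4.90 to 9.05, 8.17 and 7.13 CPM (adjusted p = 0.0145), were those that rose. Hlcs, which attaches biotin to the carboxylases, was lower in every Rb2 library and did not pass (-0.71, adjusted p = 0.0532). Of 7 genes of cobalamin handling none passed. The smallest p belonged to Mmachc (0.47, adjusted p = 0.0645) and Mtr (0.49, adjusted p = 0.0683).

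At the plasma membrane Slc7a8, a transporter of large neutral amino acids, was at 2.84, 2.47 and 2.57 CPM with PBS and 13.7, 5.71 and 12.9 CPM with Rb2 (2.04, edgeR adjusted p = 0.0108). Slc3a2, the heavy chain with which it pairs, fell from 67.3, 68.9 and 50.6 to 30.8, 25.5 and 24.6 CPM (-1.21, adjusted p = 0.00532). Slc7a5, another light chain of Slc3a2, was at 0.370 to 0.889 CPM with PBS and 0.272 to 0.436 CPM with Rb2, with overlap.

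No gene of HMG-CoA and ketone synthesis passed. Acat3 (0.55, edgeR adjusted p = 0.0526), whose sequence is close to that of Acat2 so that reads may be split between them, and Hmgcs1 (-0.28, adjusted p = 0.295) had the smallest p. Among the minor enzymes of the pathway none passed either, with Aox1 (0.40, adjusted p = 0.0816) and Acss3 (0.60, adjusted p = 0.0843) nearest. Among transcription regulators tied to the pathway, Klf15, a Kruppel-like factor known to induce branched-chain amino acid catabolism in muscle and liver, was at 18.8, 23.5 and 21.2 CPM with PBS. With Rb2 it was at 48.0, 55.9 and 27.8 CPM in Rb2 1, 3 and 4, all above the PBS range (1.05, adjusted p = 0.0329). Ppara, a lipid-sensing nuclear receptor, rose too (0.75, adjusted p = 0.0369), and Ppargc1a (0.03, adjusted p = 0.932) and Esrra (0.11, adjusted p = 0.725) did not pass.

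For comparison, 7 of 18 genes of the TCA cycle rose (median log2 fold change 0.58) and 4 of 20 of mitochondrial fatty acid oxidation (0.39). Some of these are genes already named above as rising. Dld, Sucla2 and Suclg2 belong to the TCA cycle list, and Acadm, Etfa and Etfdh to that of fatty acid oxidation. Among 33 nuclear subunits of oxidative phosphorylation 2 rose and 1 fell (median 0.05). Of all genes tested, 5.33% rose and 5.11% fell. The groups did not overlap, with Rb2 higher, in 12 of the 18 genes of the TCA cycle and 12 of the 20 of fatty acid oxidation. That was so in 5 of the 33 oxidative phosphorylation genes and in 18.2% of all genes tested. The differences between these lists were not tested.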

How the data were processed

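Poly(A) RNA of 6 brown fat samples (3 PBS, 3 Rb2) was sequenced. The authors deposited raw read counts per gene, whole numbers with different totals per library; the tools listed, per the submitters' processing notes, are StringTie, HISAT2, Trimmomatic and Bowtie2, and the build is mm10. Their roles and versions, the counting program and its strand setting: not given in the sources used here. Column names give the group and a library number that cannot be tied to the title's replicate number.

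Counts were tested with edgeR 4.0.16 (R 4.3.3): TMM factors, a filter (count minimum 10, total at least 15) that left 16707 genes, robust quasi-likelihood F tests and Benjamini-Hochberg adjustment over all of them. The SE is the log2 fold change over the square root of F, and CPM values are TMM-normalised with SD over 3 mice. Ratios between members used raw counts per base of the longest GENCODE M21 transcript, an exact permutation test and an adjustment over 7 ratios. Positions and promoters are from RefSeq GRCm38.p6, the assembly of mm10. A count of 0 allows at most 3 counts, 0.0359 CPM in the smallest library (counting error only).

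Alternatives were DESeq2 1.42.0 (Wald test and size factors), limma-voom 3.58.1, upper-quartile factors, library size alone, leaving out genes of the mitochondrial genome, no filter, a count minimum of 50, a threshold of 0.1, each library or both muscle-rich PBS libraries left out, a muscle covariate, a block on shared library numbers, and an offset from splines (5 degrees of freedom each) on GC content and log length, known for 94.9% of tested genes. The test was tried on simulated counts. All members are named; of the companion lists, every member past the threshold is, and in lists with none up to 2 with the smallest p, and Klf15 always. Etfb, Hlcs, Slc7a5, Ppargc1a, Esrra, Pdgfra and the brown fat markers were named beyond this rule after their values were seen. The members and lists were chosen with earlier results of these data known.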

Additional observations from a re-analysis of the deposited data

How the results depend on the processing

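No member changed the sign of a called value under any alternative run. The median log2 fold change of the members ran from 0.39 to 0.51 with 1 library left out. It was 0.28 without both muscle-rich PBS libraries, where 0 members and 0 genes passed edgeR's threshold, and 0.35 with library size alone, where 5 members rose. With 1 library left out 1 to 12 members rose, 0 to 1 fell, and 303 to 2269 genes were called, against 11, 0 and 1743 with all libraries. Called genes numbered 334 without PBS 1, 303 without PBS 2 and 1564 without PBS 4. They numbered 548 without Rb2 1, 601 without Rb2 3 and 2269 without Rb2 4. Such fits have 1 library fewer, and the part of this in the lost calls was not tested. The muscle covariate left 6 members and 907 genes. The DESeq2 Wald test called 3309 genes and a threshold of 0.1 called 3392, each with 16 members higher and 1, Abat, lower. Abat was also called with a count minimum of 50 (1 lower). With library size alone 38.7% of called genes were higher and with the GC and length offset 60.8%, against 51.1%. Ppm1k, Dbt, Hibch, Aldh6a1 and Mmut passed in each of the 11 alternatives outside the single-library ones that called any gene. Library numbers 1 and 4 occur in both groups, and a block on them (1 residual degree of freedom) called 0 genes (smallest adjusted p = 0.102; 2096 genes and 6 members at an unadjusted p under 0.05), with a median of 0.43. The correlation across genes of deviations from the group mean was -0.197 and -0.215 for same-numbered libraries. It ran from -0.472 to 0.506 for libraries with different numbers. Deviations from a mean of 3 libraries are tied to each other, so these values cannot decide whether the numbers mark pairs. The main fit used no pairing. Bdh1, Bcat1 and Abat rest on few counts, and their intervals are the widest of the members.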
